A study of Danio rerio with 15 samples.

Results

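The module described here holds 200 genes whose transcripts had a higher group mean in depleted zebrafish testes than in control testes and still had a higher group mean in recovering testes. Members were chosen from group means of CPM (a gene's count divided by the library's total count, times 1000000). A gene qualified if all 3 group means were under 500 CPM, its Depletion mean was at least 10 CPM, and the mean plus 0.5 CPM was at least 4 times the Control value in Depletion and at least 3 times in Recovery. Of 33752 gene identifiers, 289 qualified, and the 200 with the largest log2 ratio of Recovery to Control were taken. Every difference from Control given for a member below is therefore a description of how it was chosen, and the counts of members called by a test are given only beside the share of all genes called.

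The series sequenced messenger RNA of testis tissue from adult wild-type zebrafish, and its title concerns endocrine and local control of spermatogenesis. There were 5 Depletion libraries, 5 Recovery libraries and 4 Control libraries, all of the same labelled age, genotype and tissue and all described as biological replicates. Control replicate 2 was not analysed here. The agent or manipulation that depleted the testes, the strain of the fish and the length of the recovery are not given in the sources used here, nor is it said whether a library came from 1 fish or from a pool.

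A testis is made of germ cells inside tubules, the Sertoli cells that nurse them, and the tissue between tubules: steroid-producing Leydig cells, vessels, fibroblast-like cells that lay down collagen, and leukocytes. When germ cells are lost, the transcripts of the cells that stay make up a larger share of the RNA, and as germ cells return that share falls again. In bulk tissue a change in the number of cells of a type and a change in RNA per cell cannot be told apart. Zebrafish pancreas is spread along the gut close to other abdominal organs, and its digestive-enzyme transcripts are among the most abundant in the body.

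The labelled tissue and states were visible in the germ-cell genes. Summed over 25 identifiers of germ cells and meiosis, such as ddx4 and sycp3, they held 4535, 5284, 251, 483 and 78 CPM in Depletion 1 to 5. They held 10773, 14180, 17307, 10028 and 10927 CPM in Recovery 1 to 5, against 15322, 16208, 14328 and 14718 CPM in Control 1, 3, 4 and 5. None of them is a member. Library totals ran between 8123444 and 10059498 counts in Depletion, between 8661834 and 25035915 in Recovery and between 8617589 and 48646941 in Control, so that 3 counts, the limit that a count of 0 allows, corresponded to at most 0.369 CPM in any library.

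Libraries of 1 group stood apart from each other for the members. In Recovery 3, 94 of the 200 members lay above every Control library, while 171, 148, 160 and 188 did in Recovery 1, 2, 4 and 5. Of all genes tested, 22.4% did in Recovery 3 and 29.3%, 27.6%, 21.9% and 28.8% in Recovery 1, 2, 4 and 5. Recovery 3 was also the recovering library with the most germ-cell RNA and the most counts. Control 4 had the least germ-cell RNA of the Controls. A link of either property with the members was not tested. Among the Controls, 87 members in Control 1 and 95 in Control 5 lay above the 3 other Controls, but only 10 in Control 3 and 7 in Control 4. Of all genes tested, 26.2%, 27.4%, 23.9% and 22.5% did in Control 1, 5, 3 and 4. Recovery 1 was the highest recovering library for 105 members and Recovery 5 for 49, while Depletion 5 was the highest depleted library for 80. Depletion 2, Recovery 2 and Recovery 5 carried a separate set of pancreatic transcripts, described below.

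**Figure D1:**
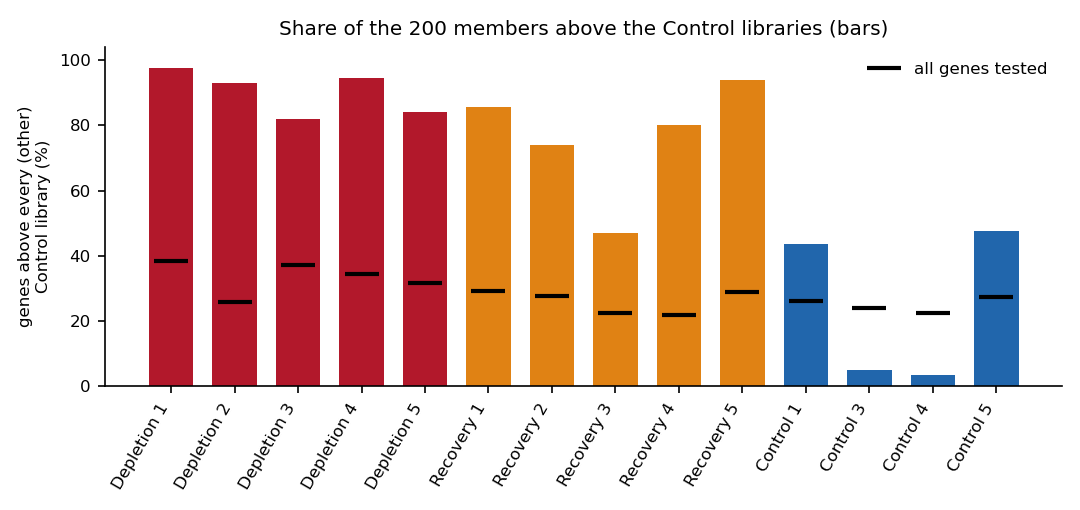
Bars give, for each library, the percentage of the 200 members whose CPM lay above every Control library (for a Control library, above the 3 other Controls); black dashes give the same for all 21277 genes tested. Recovery 3 (47.0%) is the lowest of the recovering libraries, and Control 3 and Control 4 lie at 5.00% and 3.50%.

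Over the whole module the median member stood 3.65 log2 units above Control in Depletion and 2.28 above Control in Recovery, and 1.18 lower in Recovery than in Depletion. The medians of all genes tested on the same log2(CPM + 0.5) scale were -0.31, -0.06 and 0.24 for these ratios. The median member kept 39.2% of its rise, that is, the Recovery mean minus the Control mean as a share of the Depletion mean minus the Control mean, with a range of 2.80% to 163%. Only 16 members had a Recovery mean at or above the Depletion mean. Together the members took 1.62% to 2.49% of all counts in Depletion libraries, 0.345% to 1.63% in Recovery libraries and 0.102% to 0.201% in Control libraries. For 88 members the ratio of Recovery to Control was under 3-fold when group medians replaced group means, so for these the ratio depended on the use of means. In 98 members 1 Recovery library held more than 50% of the summed Recovery CPM, and in 63 members 1 Depletion library held more than 50% of the Depletion sum.

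The first 50 ranks, by the ratio of Recovery to Control, were the least even. Among ranks 1 to 50, 43 members had more than 50% of their Recovery sum in 1 library, and 10 had all 5 Recovery libraries above all 4 Controls. Among ranks 51 to 100, 101 to 150 and 151 to 200, the first number was 27, 16 and 12 and the second was 25, 21 and 25. Of all genes tested, 5.23% had all 5 Recovery libraries above all 4 Controls.

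**Figure D2:**
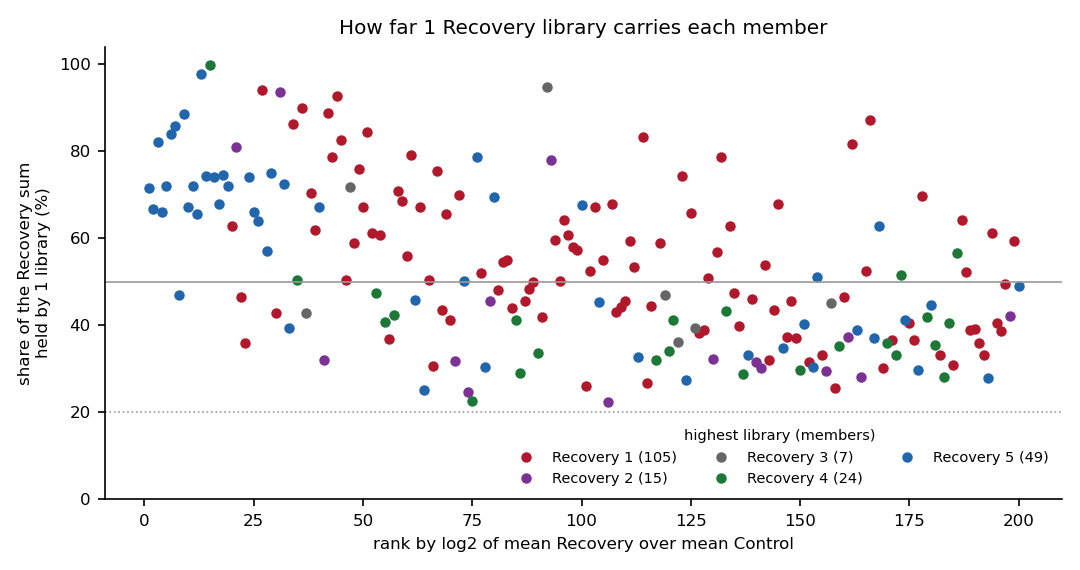
Each point is 1 member, placed by its rank in the module (x axis) and the share of its summed Recovery CPM held by its highest Recovery library (y axis, %), coloured by that library; the solid line marks 50% and the dotted line the 20% of an even spread over 5 libraries. Blue points (Recovery 5) fill the upper left, and from about rank 50 on most points are red (Recovery 1).

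The top of the module was made of pancreatic secretory genes. There were 18 named members in this role, among them chymotrypsin (ctrb.1, ctrb.3, ctrl), trypsin (prss59.1) and elastase genes (ela2, ela2l, ela3l, cela1.3, CELA1), carboxypeptidases (CPA1 under a pair of identifiers, CPB1), amylase (amy2a), bile-salt-activated lipase (CEL under a pair of identifiers), syncollin (sycn.1), a zymogen granule protein, and insulin (ins), the hormone of pancreatic beta cells. The symbols follow the gene table, which writes some zebrafish genes in capitals after the human gene.

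ctrb.1, a digestive protease and the first-ranked member, had 73.6, 2102, 10.3, 55.2 and 2.49 CPM in Depletion 1 to 5. It had 2.66, 435, 0.399, 7.15 and 1121 CPM in Recovery 1 to 5, against 9.12, 0.116, 0.0868 and 16.2 CPM in Control 1, 3, 4 and 5. Depletion 2, Recovery 5 and Recovery 2 were far above all other libraries, while Depletion 5 and Recovery 1, 3 and 4 lay below Control 1. The group means were 449 ± 925 CPM in Depletion, 313 ± 489 CPM in Recovery (SD, n = 5 each) and 6.38 ± 7.80 CPM in Control (SD, n = 4), so each SD exceeded its mean.

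The trypsin gene prss59.1 had the same shape. Its levels in Depletion 1 to 5 were 42.0, 1998, 7.95, 39.7 and 2.09 CPM. In Recovery 1 to 5 they were 6.47, 540.2, 8.03, 8.64 and 1154 CPM, against 20, 7.66, 4.51 and 23.4 CPM in Control 1, 3, 4 and 5. Outside the 3 high libraries, the depleted and recovering values lay on both sides of the Controls and among them.

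For insulin the libraries differed again. It stood at 0.369, 59, 0.109, 0.325 and 0 CPM in Depletion 1 to 5, and at 0.808, 41.6, 0, 0.640 and 1.36 CPM in Recovery 1 to 5. Controls 1, 3, 4 and 5 had 1.37, 0, 0.174 and 0.0822 CPM. Recovery 5, the highest recovering library for 17 of the 18 pancreatic members, was not high for insulin, and Recovery 2 was.

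Summed over the 18 members, pancreatic secretory transcripts held 412, 12519, 76.7, 376 and 82.1 CPM in Depletion 1 to 5 and 134, 2680, 45.7, 95.7 and 7657 CPM in Recovery 1 to 5. Control 1, 3, 4 and 5 held 126, 67.3, 39.8 and 168 CPM. None of the 18 had all 5 Recovery libraries above all Controls (5.23% of all genes tested), and all 18 had more than 50% of their Recovery sum in 1 library. Of the 16 exocrine pancreas identifiers in the marker list, 12 were members. Of those that were not members, prss1 had means of 639, 413 and 13.5 CPM in Depletion, Recovery and Control, prss59.2 had 616, 303 and 9.23 CPM, and an elastase listed as CELA1 had 506, 436 and 13.6 CPM, so these lay over the 500 CPM limit in Depletion. In Depletion 5, Control 3 and Control 4, 1 of the 16 identifiers had no count, and in the other libraries all 16 had counts. Liver genes had their highest sums in other libraries. The 14 liver identifiers, such as fabp10a and tfa, include no member. They summed to 4893, 770, 364, 11916 and 666 CPM in Depletion 1 to 5. In Recovery 1 to 5 they summed to 1313, 209, 139, 147 and 595 CPM, against 161, 79.4, 368 and 277 CPM in the Controls. Depletion 4 and Depletion 1 were the high ones there. The 16 pancreas identifiers summed to 525 and 498 CPM in these libraries, also above every Control (46.3 to 220 CPM). Likewise, the liver sums in Depletion 2 and Recovery 5 lay above every Control, while that in Recovery 2 lay among them.

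In all, 28 members shared the pattern of having over 50% of the Depletion sum in Depletion 2 and over 80% of the Recovery sum in Recovery 2 and Recovery 5 together. They were the 18 pancreatic members, the astacin-family metalloproteases c6ast3 and c6ast4, the protease inhibitor spink4, the lipid carrier APOD and 6 members known only by a locus name. This pattern was defined after the values were seen. Without Depletion 2, Recovery 2 and Recovery 5, 2 of the 28 still met the rule, and 164 of all 200 members, which include the 28, did. The pattern was defined by these libraries, so the low number among the 28 follows largely from its definition. The part of pancreatic tissue in these libraries was not tested.

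**Figure D3:**
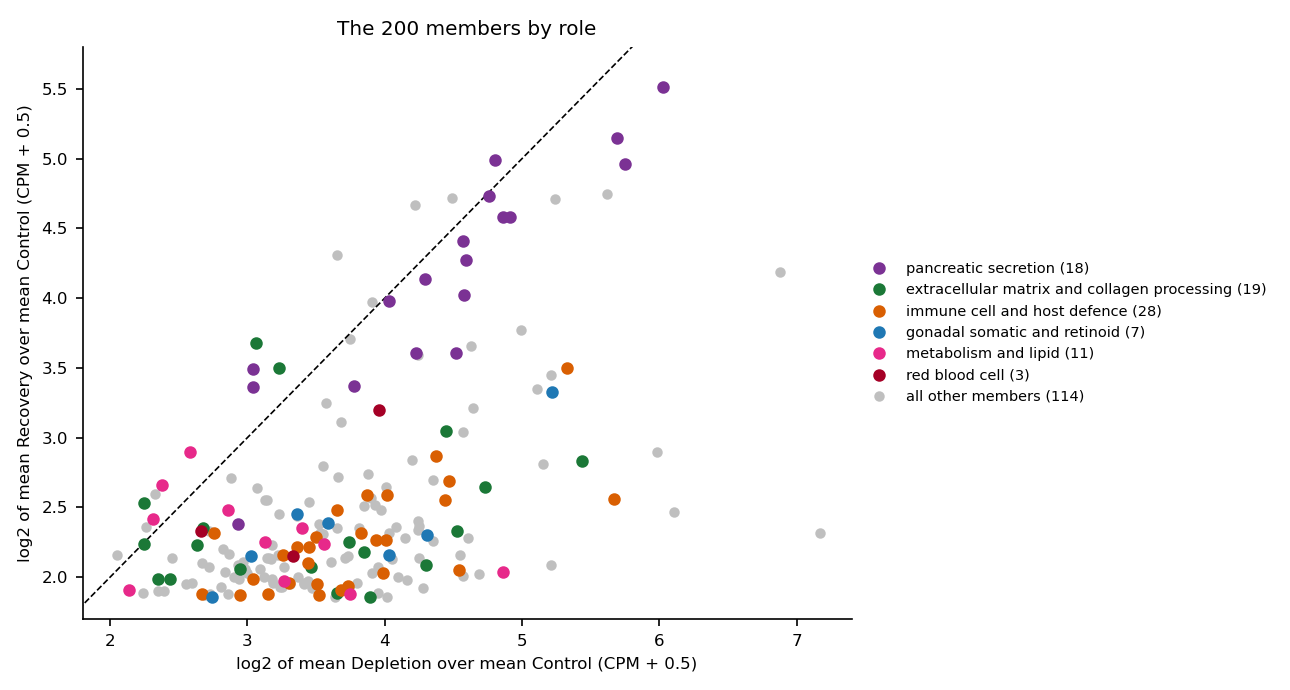
Each point is 1 member, placed by the log2 ratio of mean Depletion over mean Control (x axis) and of mean Recovery over mean Control (y axis), both on CPM + 0.5; colours give roles assigned by hand and the dashed line marks equal levels in Depletion and Recovery. Most pancreatic secretory members lie near the dashed line in the upper part, with a median of 4.21 on the y axis, and most immune members lie low and to its right, with a median of 2.22.

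Outside these 28, the other 172 members had a median log2 ratio of 3.52 in Depletion and 2.17 in Recovery over Control. All 81 members with every Recovery library above every Control (5.23% of all genes tested) were among these 172. The median level of the 172 over Control was 3.14 in Recovery 1, 1.0 in Recovery 2, 0.66 in Recovery 3, 1.98 in Recovery 4 and 2.05 in Recovery 5. Roles for these were assigned by hand from gene names after the members were known.

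Red blood cells gave 3 members: alas2, the first enzyme of haem synthesis in erythroid cells, the globin gene listed as HBE1, and kel, a blood-group surface protein. alas2 had 132, 47.9, 64.6, 282 and 307 CPM in Depletion 1 to 5 and 164, 35.9, 209, 41.3 and 38.4 CPM in Recovery 1 to 5. Control 1, 3, 4 and 5 had 15.4, 1.97, 2.43 and 21.0 CPM. All depleted and recovering libraries lay above all Controls, and Controls 1 and 5 were themselves well above Controls 3 and 4. The globin gene had 88.5, 218, 79.4, 360 and 265 CPM in Depletion 1 to 5 and 334, 52.4, 297, 65.2 and 50.8 CPM in Recovery 1 to 5, against 82.6, 2.55, 4.34 and 36.5 CPM in the Controls. Its groups overlapped, since Control 1 exceeded Recovery 2, 4 and 5. Recovery 3, the lowest recovering library for the module, was one of the highest for red blood cell genes: the 3 members summed to 504, 90.8, 514, 108 and 92.3 CPM in Recovery 1 to 5.

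Immune cell and host defence genes made up 28 members, with median log2 ratios of 3.67 in Depletion and 2.22 in Recovery over Control and a median of 32.5% of the rise kept. They held macrophage receptors (mrc1b, havcr1), a complement component (c1qb), a lysosomal glycoprotein of phagocytes (GPNMB), a cholesterol carrier of lysosomes (NPC2), chemokines and a chemokine receptor (ccl25b, ccl34b.9, ccr12b.2), a subunit of the phagocyte oxidase (cyba), the immunoglobulin heavy chain of B cells (ighm) and a lytic granule protein of T and NK cells (nkl.2). In 25 of the 28 all depleted libraries lay above all Controls (18.6% of all genes tested), but in 6 of the 28 all recovering libraries did (5.23% of all genes tested). Recovery 1 was the highest recovering library for 23 of them. nkl.2 rested on Recovery 2, with 1.96, 47.5, 1.44, 4.80 and 5.25 CPM in Recovery 1 to 5. Its Controls had 2.96, 1.97, 1.47 and 1.75 CPM. The NPC2 member is ENSDARG00000096979, with means of 35.0, 9.09 and 1.13 CPM in Depletion, Recovery and Control. The other NPC2 identifier, ENSDARG00000090912, is not a member and had 144, 77.1 and 53.9 CPM.

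mrc1b, the mannose receptor of scavenging macrophages and endothelium, had 309, 66.2, 249, 297 and 216 CPM in Depletion 1 to 5. It had 258, 45.1, 23.2, 61.1 and 95.7 CPM in Recovery 1 to 5, against 23.5, 20.3, 12.3 and 25.5 CPM in Control 1, 3, 4 and 5. Recovery 1 was at the depleted level, and Recovery 3 lay among the Controls. c1qb, which encodes a chain of complement C1q, had 109, 135, 107, 120 and 277 CPM in Depletion 1 to 5. It had 86.7, 23.2, 9.99, 27.5 and 43.0 CPM in Recovery 1 to 5, against 14.7, 7.77, 7.72 and 5.51 CPM in the Controls, and again Recovery 3 alone overlapped them.

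The B cell gene ighm was uneven within every group. Depletion 1 to 5 had 244, 146, 73.0, 39.4 and 194 CPM. Recovery 1 to 5 had 84.5, 3.69, 9.07, 4.59 and 172 CPM, against 48.6, 1.74, 0.868 and 3.68 CPM in Control 1, 3, 4 and 5. Recovery 2, 3 and 4 lay among the Controls and Recovery 1 and 5 above them. The steadiest immune member was adgre5a, an adhesion receptor of leukocytes (known as CD97 in mammals). It had 52.2, 52.5, 46.5, 78.8 and 79.5 CPM in Depletion 1 to 5 and 18.9, 43.1, 14.4, 22.9 and 36.2 CPM in Recovery 1 to 5, against 3.99, 3.60, 3.38 and 6.89 CPM in the Controls. Here the lowest recovering library stood more than 2 times above the highest Control.

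The broader leukocyte genes gave the scale of this. Of 13 leukocyte markers tested, all 13 rose in Depletion against Control and all 13 fell in Recovery against Depletion at an adjusted p under 0.05 by edgeR's quasi-likelihood test, and 0 were called higher in Recovery than in Control (8 had an unadjusted p under 0.05, and DESeq2 called 2). Of all genes tested, 34.2% were called higher and 32.1% lower in Depletion than in Control. In Recovery 0.418% were called higher than in Control, and 30.5% lower and 28.7% higher than in Depletion. For higher in Recovery than in Control, 2467 of all 21277 genes had an unadjusted p under 0.05, and DESeq2 called 5.05% of all genes. The medians of the 13 markers over Control were 2.97 log2 units in Depletion and 1.14 in Recovery, beside 0.03 and -0.01 over all genes tested. Among the 13, cyba is a member. Macrophage markers rose in 20 of 21 tested in Depletion (34.2% of all genes) and fell in 19 in Recovery against Depletion (30.5% of all genes), with havcr1 and c1qb as members; against Control, 0 were called higher in Recovery (11 at an unadjusted p under 0.05, DESeq2 7). Of 17 T, NK and B cell markers tested, 13 rose in Depletion (34.2% of all genes) and 8 fell in Recovery against Depletion (30.5% of all genes). Against Control, 0 of the 17 were called higher in Recovery (3 at an unadjusted p under 0.05, DESeq2 2), and nkl.2 and ighm are the members. Of 10 neutrophil markers tested, 4 rose in Depletion (34.2% of all genes) and 4 fell in Recovery against Depletion (30.5% of all genes). Both counts lay near those shares, so no difference from other genes is read from them. Against Control, 0 of the 10 were called higher in Recovery (1 at an unadjusted p under 0.05, DESeq2 0), and none is a member. Their medians over Control were 2.3 log2 units in Depletion and 0 in Recovery. Summed leukocyte markers stood at 1584, 708, 342, 1078 and 1066 CPM in Recovery 1 to 5, against 876, 493, 433 and 531 CPM in the Controls, so Recovery 1 was highest and Recovery 3 lowest here too.

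**Figure D4:**
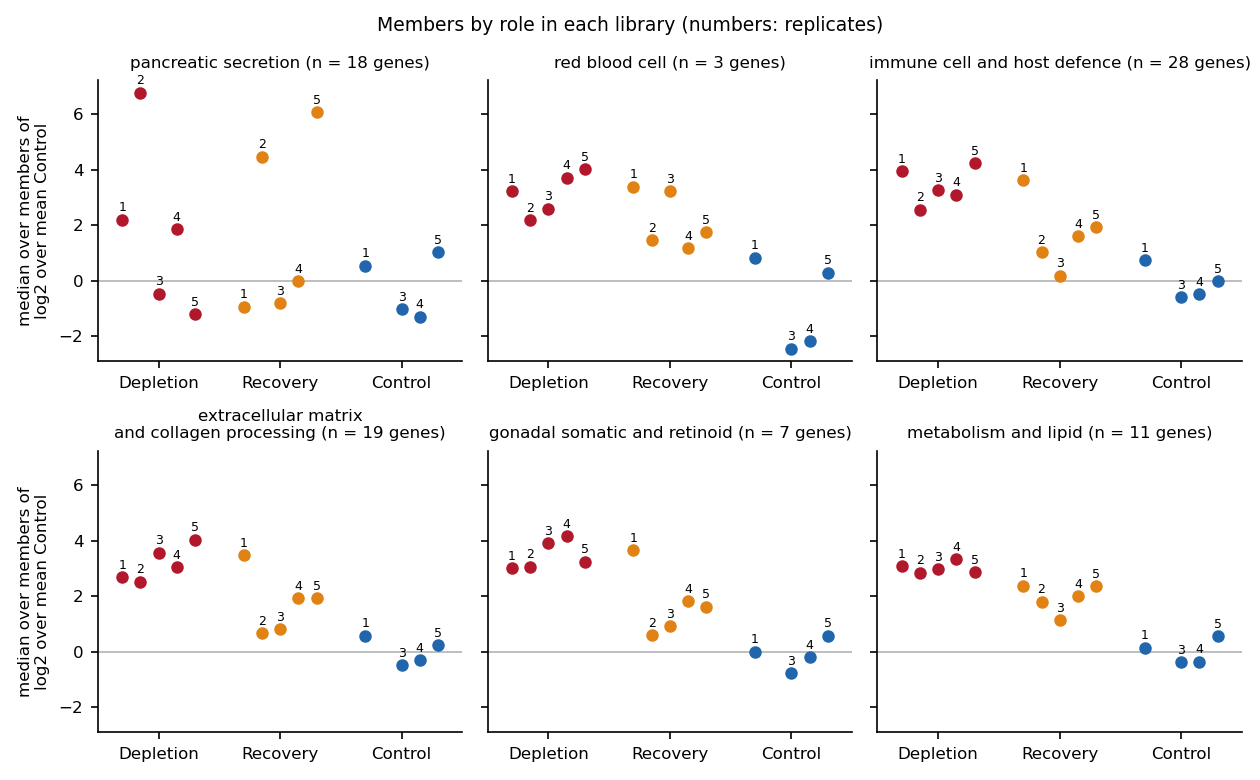
Each panel is 1 role; points give, for each library, the median over its members of the log2 ratio to the mean of the Controls (for a Control library, of the 3 other Controls), and numbers are replicates. Pancreatic members reach 6.77, 4.47 and 6.07 in Depletion 2, Recovery 2 and Recovery 5, while immune members reach 3.63 in Recovery 1 and 0.19 in Recovery 3.

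Extracellular matrix and collagen processing accounted for 19 members. Structural members were the collagen genes col6a1, COL5A1 and col28a2a and the small proteoglycan LUM (lumican), and regulators of the matrix were the secreted inhibitor TIMP2, the membrane protease MMP14 and the matricellular proteins CCN2 and SPON2. Members that act on collagen inside the endoplasmic reticulum were SERPINH1 (HSP47, the collagen chaperone, under a pair of identifiers), PLOD2 (a lysyl hydroxylase), the prolyl isomerase FKBP7 and the calcium-binding protein rcn3. Median log2 ratios over Control were 3.46 in Depletion and 2.24 in Recovery. The TIMP2 member is ENSDARG00000075261, with means of 83.1, 63.2 and 13.0 CPM in Depletion, Recovery and Control. The other TIMP2 identifier, ENSDARG00000061226, is not a member and had 384, 114 and 72.7 CPM.

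COL5A1, a chain of fibrillar collagen V, had 166, 80.4, 307, 214 and 574 CPM in Depletion 1 to 5. It had 391, 55.4, 65.5, 127 and 86.7 CPM in Recovery 1 to 5, against 39.8, 22.7, 39.8 and 35.2 CPM in Control 1, 3, 4 and 5. Every recovering library lay above every Control, and Recovery 1 held 53.9% of the Recovery sum. col6a1, a chain of the beaded-filament collagen VI, had 332, 117, 483, 421 and 457 CPM in Depletion 1 to 5 and 197, 35.0, 27.0, 25.2 and 110 CPM in Recovery 1 to 5, against 27.7, 8.12, 6.25 and 18.9 CPM in the Controls. Recovery 3 and Recovery 4 lay just under Control 1. LUM had 6.65, 8.29, 41.4, 16.3 and 161 CPM in Depletion 1 to 5 and 30, 0.377, 0.719, 1.49 and 3.68 CPM in Recovery 1 to 5. Its Controls had 0.456, 0.464, 0.434 and 1.01 CPM, so that Recovery 2 and Recovery 3 overlapped them.

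The collagen chaperone behaved otherwise. SERPINH1 at ENSDARG00000019949 had 21.1, 20.7, 39.4, 11.8 and 45.0 CPM in Depletion 1 to 5. It had 98.8, 35.6, 17.9, 47.9 and 13 CPM in Recovery 1 to 5, against 3.88, 2.55, 2.69 and 2.32 CPM in Control 1, 3, 4 and 5. The groups did not overlap with Control, and the Recovery mean of 42.6 ± 34.4 CPM was above the Depletion mean of 27.6 ± 14 CPM (SD, n = 5 each) by less than the Recovery SD. The second SERPINH1 identifier, ENSDARG00000075954, had means of 49 ± 20.3 CPM in Depletion, 59.6 ± 30.7 CPM in Recovery and 9.90 ± 0.802 CPM in Control. Whether reads were split between such paralogous copies is not known for any pair of identifiers that share a symbol. FKBP7 had 16, 32.8, 32.6, 30.5 and 60.9 CPM in Depletion 1 to 5 and 38.0, 21.0, 18.1, 40.0 and 20.2 CPM in Recovery 1 to 5, against 5.82, 4.06, 4.16 and 5.90 CPM in the Controls. Among members that act on collagen in the endoplasmic reticulum, FKBP7 kept 76.0% of its rise, PLOD2 35.1% and rcn3 99.2%; of the structural ones, col6a1 kept 18.3%, LUM 14.4%, COL5A1 47.4% and col28a2a 123%.

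The stromal and extracellular matrix list placed these members among genes with the same direction. Of 31 tested, 26 rose (34.2% of all genes) and 1 fell in Depletion against Control, and 2 rose in Recovery against Control (0.418% of all genes; 22 at an unadjusted p under 0.05, DESeq2 17). For higher in Recovery than in Control, 2467 of all 21277 genes had an unadjusted p under 0.05, and DESeq2 called 5.05%. In Recovery against Depletion 21 fell (30.5% of all genes) and 1 rose. The list's summed level was 12527, 4089, 2905, 7101 and 6757 CPM in Recovery 1 to 5, against 2281, 1366, 1678 and 2428 CPM in the Controls. LUM, col6a1, TIMP2 and COL5A1 are its 4 members. What share these cell types had in the high values of Recovery 1 was not tested.

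A further 7 members were placed by name with genes of Sertoli or Leydig cells or of retinoid handling. They are hsd3b1, which makes active steroids from their precursors, igf3, a fish insulin-like growth factor that is a target of follicle-stimulating hormone in zebrafish testis, wt1b, a transcription factor of somatic gonad cells, and CLU (clusterin), a secreted chaperone. Of the retinoid genes, RDH10 oxidises retinol towards retinoic acid, DHRS3 turns retinal back into retinol, and CRABP2 carries retinoic acid in the cell. Of the 7, 5 had all recovering libraries above all Controls, beside 5.23% of all genes tested.

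hsd3b1 had 210, 461, 351, 510 and 41.7 CPM in Depletion 1 to 5. It had 141, 145, 78.6, 111 and 209 CPM in Recovery 1 to 5, against 21.8, 22.7, 20.8 and 37.7 CPM in Control 1, 3, 4 and 5. No recovering library came near the Controls, and Depletion 5 was the one low depleted library. Depletion 5 was also low for igf3, which had 16.6, 35.2, 45.1, 127 and 1.99 CPM in Depletion 1 to 5 and 17.5, 51.2, 18.3, 13.8 and 20.5 CPM in Recovery 1 to 5. Its Controls had 5.25, 1.97, 7.98 and 10.1 CPM, below every recovering library. The summed Leydig cell and steroidogenic list was likewise lowest among depleted libraries in Depletion 5, at 1578 CPM against 6258, 13329, 7252 and 10282 CPM in Depletion 1 to 4. The Controls held 1677, 1090, 1308 and 1876 CPM for this list, so Depletion 5 lay among them. Of the 19 genes of this list tested, 16 rose (34.2% of all genes) and 1 fell in Depletion against Control. In Recovery against Control 2 rose (0.418% of all genes). There, 8 had an unadjusted p under 0.05 (2467 of all 21277 genes) and DESeq2 called 7 (5.05% of all genes).

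RDH10 had 104, 169, 290, 349 and 78.2 CPM in Depletion 1 to 5 and 74.1, 50.7, 46.5, 91.7 and 265 CPM in Recovery 1 to 5, against 25.0, 14.2, 17.0 and 19.4 CPM in the Controls. Recovery 5 held 50.2% of the Recovery sum, and the other recovering libraries were still all above the Controls. This member is ENSDARG00000058730. The other RDH10 identifier, ENSDARG00000012369, is not a member and had means of 27.1, 21.6 and 21.2 CPM in Depletion, Recovery and Control. DHRS3 had 122, 54.2, 167, 126 and 175 CPM in Depletion 1 to 5 and 92.2, 9.42, 7.83, 22.7 and 26.6 CPM in Recovery 1 to 5, against 6.04, 5.22, 5.29 and 7.61 CPM in the Controls. Recovery 1 was the high one, and Recovery 3 stood just above Control 5. This member is ENSDARG00000044982. The other DHRS3 identifier, ENSDARG00000044803, is not a member and had means of 39.5, 13.5 and 6.91 CPM in Depletion, Recovery and Control. CRABP2 had 6.4, 7.93, 49.8, 14.5 and 98.1 CPM in Depletion 1 to 5 and 27.4, 2.71, 3.63, 9.28 and 3.41 CPM in Recovery 1 to 5, against 1.6, 0.928, 1.82 and 2.41 CPM in the Controls. Of 22 retinoic acid genes tested, these 3 are members, and 13 rose (34.2% of all genes) and 1 fell in Depletion against Control. In Recovery 0 were called higher than in Control (0.418% of all genes). There, 6 had an unadjusted p under 0.05 (2467 of all 21277 genes) and DESeq2 called 4 (5.05% of all genes).

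CLU and wt1b were carried by Recovery 1. CLU had 87.9, 160, 501, 109 and 716 CPM in Depletion 1 to 5 and 367, 8.96, 6.75, 17.3 and 25.2 CPM in Recovery 1 to 5, against 11.1, 4.99, 4.25 and 11.7 CPM in the Controls. wt1b had 72.6, 8.05, 15.0, 29.4 and 38.0 CPM in Depletion 1 to 5 and 64.7, 5.2, 2.84, 4.16 and 10.2 CPM in Recovery 1 to 5, against 4.33, 1.62, 3.38 and 4.85 CPM in the Controls. Recovery 2 and Recovery 3 overlapped the Controls for CLU, and Recovery 3 and Recovery 4 did for wt1b. These 2 genes and igf3 are the members among 18 Sertoli cell genes tested. Of the 18, 14 rose (34.2% of all genes) and 1 fell in Depletion against Control. In Recovery 0 were called higher than in Control (0.418% of all genes). There, 10 had an unadjusted p under 0.05 (2467 of all 21277 genes) and DESeq2 called 5 (5.05% of all genes). The list summed to 6472, 8054, 10505, 8980 and 5945 CPM in Depletion 1 to 5. It summed to 3738, 4772, 3321, 4562 and 3732 CPM in Recovery 1 to 5, against 2669, 2068, 2569 and 2890 CPM in the Controls. Depletion 5 and Recovery 1, the highest of their groups for CLU, were not the highest for the list.

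Metabolic and lipid genes were the most even of the larger roles: 9 of 11 had all recovering libraries above all Controls, beside 5.23% of all genes tested. The median member of this role kept 48.3% of its rise. FABP7, a carrier of long-chain fatty acids, had 228, 244, 501, 188 and 329 CPM in Depletion 1 to 5. It had 176, 181, 141, 146 and 162 CPM in Recovery 1 to 5, against 40.7, 30.1, 24.7 and 38.4 CPM in Control 1, 3, 4 and 5. The means were 298 ± 124 CPM in Depletion, 161 ± 17.7 CPM in Recovery (SD, n = 5 each) and 33.5 ± 7.42 CPM in Control (SD, n = 4), and the highest Recovery library held 22.4% of the sum, the lowest such share in the module. This member is ENSDARG00000007697. The other FABP7 identifier, ENSDARG00000034650, is not a member and had means of 0.731, 0.504 and 0.447 CPM in Depletion, Recovery and Control.

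ELOVL5, which lengthens polyunsaturated fatty acids, had 33.1, 55.1, 73.8, 104 and 44.0 CPM in Depletion 1 to 5 and 104, 125, 41.8, 58.0 and 60 CPM in Recovery 1 to 5, against 10, 8.12, 8.16 and 13.5 CPM in the Controls. Its Recovery mean of 77.7 ± 35.0 CPM was above its Depletion mean of 62.0 ± 27.9 CPM by less than 1 SD. DGAT2, the last enzyme of triglyceride synthesis, had 38.9, 12.5, 48.7, 229 and 85.7 CPM in Depletion 1 to 5 and 71.1, 55.3, 44.9, 239 and 93.6 CPM in Recovery 1 to 5, against 22.8, 7.77, 12.7 and 19 CPM in the Controls. Depletion 4 and Recovery 4 were the highest of their groups, and Depletion 2 overlapped the Controls. CTH, which makes cysteine from cystathionine, had 313, 335, 496, 389 and 368 CPM in Depletion 1 to 5 and 391, 368, 119, 455 and 284 CPM in Recovery 1 to 5, against 104, 59.9, 66.0 and 114 CPM in the Controls, and Recovery 3 stood only just above Control 5. The glutathione transferase gene GSTM3 had 244, 226, 282, 237 and 251 CPM in Depletion 1 to 5, with 263, 53.8, 72.5, 81.5 and 129 CPM in Recovery 1 to 5 and 24.9, 18.9, 19.3 and 29.4 CPM in the Controls.

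**Figure D5:**
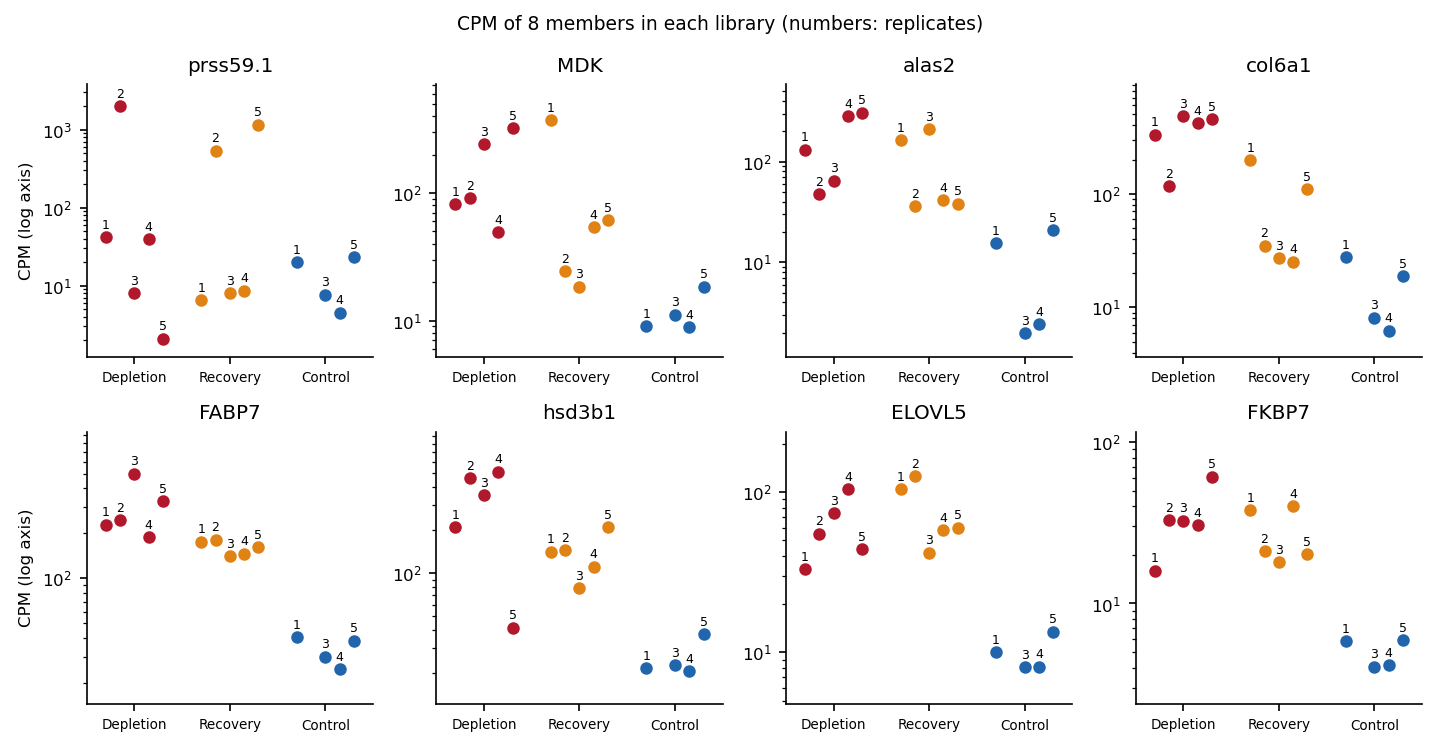
CPM of 8 members in each library on a log axis, with replicate numbers beside the points. prss59.1 is far above all other libraries in Depletion 2, Recovery 2 and Recovery 5. MDK, col6a1 and alas2 spread widely among recovering libraries. In alas2, FABP7, hsd3b1, ELOVL5 and FKBP7 every recovering library lies above every Control.

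Signalling and adhesion gave 20 members, of which 10 had all recovering libraries above all Controls (5.23% of all genes tested). The secreted growth factor MDK (midkine) had 81.9, 91.2, 243, 49.4 and 324 CPM in Depletion 1 to 5 and 375, 24.3, 18.4, 54.0 and 61.0 CPM in Recovery 1 to 5, against 9.01, 11.1, 8.85 and 18.5 CPM in the Controls. Recovery 1 held 70.4% of the Recovery sum, and Recovery 3 lay just under Control 5. The Wnt-binding protein SFRP2 had 124, 0.601, 79.1, 110 and 37.9 CPM in Depletion 1 to 5 and 39.0, 29.9, 20.8, 27.7 and 34.7 CPM in Recovery 1 to 5, against 4.90, 7.19, 7.2 and 9.87 CPM in the Controls. Its recovering values were close together and all above the Controls, while Depletion 2 was the lowest of all 14 libraries. dlb, a Delta ligand of Notch, had 13.5, 9.85, 39.1, 40.8 and 4.67 CPM in Depletion 1 to 5 and 14.4, 15.1, 13.9, 4.27 and 13.8 CPM in Recovery 1 to 5. Its Controls had 0.456, 0.696, 3.99 and 2.26 CPM, all lower.

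Among 7 transport genes, the sodium bicarbonate cotransporter SLC4A4 had 238, 224, 401, 433 and 134 CPM in Depletion 1 to 5 and 158, 274, 86.6, 128 and 264 CPM in Recovery 1 to 5. Its Controls had 54.4, 31.0, 26.2 and 61.1 CPM, below every other library. The water and glycerol channel AQP3 had 190, 117, 280, 71.3 and 399 CPM in Depletion 1 to 5 and 136, 13.4, 3.79, 101 and 102 CPM in Recovery 1 to 5, against 40.8, 8.01, 2.00 and 12.1 CPM in the Controls, which Recovery 2 and Recovery 3 overlapped. There were 3 vessel genes among the members: sox18, a transcription factor of endothelium, ramp2, a co-receptor of adrenomedullin, and mmrn2a, of the vessel wall matrix. sox18 had 30.7, 21.4, 87.9, 33.0 and 56.8 CPM in Depletion 1 to 5 and 21.7, 4.75, 8.51, 14.8 and 31.5 CPM in Recovery 1 to 5, against 6.39, 2.55, 2.08 and 4.09 CPM in the Controls, so that only Recovery 2 overlapped the Controls. Of 16 endothelial markers, none of them a member, all 16 rose in Depletion against Control (34.2% of all genes). In Recovery 14 fell against Depletion (30.5% of all genes), while 0 were called higher than in Control (0.418% of all genes). Against Control, 5 had an unadjusted p under 0.05 in that direction (2467 of all 21277 genes) and DESeq2 called 2 (5.05% of all genes).

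Of the remaining members, 26 had other named roles, 34 had only a locus name and 24 had no symbol. The tubulin gene tuba8l3 had 20.8, 21.6, 57.8, 25.5 and 96.8 CPM in Depletion 1 to 5 and 40.4, 18.7, 15.2, 30.2 and 8.38 CPM in Recovery 1 to 5, against 1.71, 1.16, 0.868 and 1.54 CPM in the Controls. FEZ1, an adaptor of kinesin motors best known from neurons, had 18.8, 4.08, 16, 35.9 and 6.06 CPM in Depletion 1 to 5 and 7.27, 7.83, 8.51, 9.39 and 8.72 CPM in Recovery 1 to 5. Its Controls had 1.37, 0.580, 1.13 and 1.44 CPM, and its recovering range was narrower than its depleted one. The locus si:dkeyp-1h4.8 rested on single libraries: it had 293 CPM in Depletion 2, 43.2 CPM in Recovery 4, at most 0.109 CPM in the other depleted and recovering libraries and no count in any Control. Of the members, 12 had a count of 0 in at least 1 Control library and si:dkeyp-1h4.8 alone had 0 in all 4.

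Complete separation was set against the rest of the genome. All 5 Recovery libraries lay above all 4 Controls for 81 of 200 members, beside 5.23% of all genes tested. All 5 Depletion libraries did for 144 members, beside 18.6% of all genes tested, and both held for 74 members, beside 3.94%. The rule chose members by these same contrasts, so the difference from the background says nothing further. The rule uses means and does not require separation.

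In 16 members the lowest recovering library stood at least 2 times above the highest Control and every depleted library was above the Controls too. This criterion was set after the values were seen. The share of all genes tested that meets it was not computed, so the 16 members are given as a description only. Besides SERPINH1 (ENSDARG00000019949), ELOVL5, FABP7, hsd3b1, FKBP7, adgre5a, tuba8l3, FEZ1 and kel, they were ckap4, a membrane protein of the rough endoplasmic reticulum, PRAF2, a small protein of vesicle membranes, jac7, 3 loci with no descriptive name and ENSDARG00000000102. ckap4 averaged 48.2 ± 16.3 CPM in Depletion, 36.8 ± 17.1 CPM in Recovery (SD, n = 5 each) and 6.91 ± 1.95 CPM in Control (SD, n = 4). The most abundant of them in Recovery was si:dkeyp-116a7.2, with a mean of 242 CPM in Recovery and 53.3 CPM in Control.

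Under edgeR's quasi-likelihood test across all 21277 genes, with p-values adjusted by the Benjamini-Hochberg method and a threshold of 0.05, 186 members were called higher in Depletion than in Control, beside 34.2% of all genes. In Recovery against Control 25 members were called higher, beside 0.418% of all genes. An unadjusted p under 0.05 in that direction was found for 182 members and for 2467 of all 21277 genes. Among all genes, 89 were called in that direction, and the rule had picked members on that difference. Leaving out Recovery 1, 2 or 4 or any 1 Control library brought the 25 to 0, with 0 of all genes called. The count was 16 without Recovery 5 (0.284% of all genes) and 69 without Recovery 3 (2.19% of all genes). Without Depletion 2 it was 61 (2.43% of all genes) and without Depletion 5 it was 51 (1.75% of all genes). DESeq2 called 140, beside 5.05% of all genes. In Recovery against Depletion 88 members were called lower, beside 30.5% of all genes, and 0 were called higher, beside 28.7% of all genes; no member had an unadjusted p under 0.05 in that direction, and DESeq2 also called 0. Both means enter the rule, so these counts too are descriptions.

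The 25 called in Recovery were not those with the largest ratios. By role, 7 were among the other named genes, 5 metabolic (ELOVL5, GSTM3, FABP7, SELENBP1 and CTH), 4 of the extracellular matrix (both SERPINH1 identifiers, FKBP7 and CILP), 4 without symbol, 2 with a locus name, and 1 each in immune cells (adgre5a), signalling (rap1b) and transport (SLC4A4). No pancreatic member was among them.

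Reading each library with the rule applied to the others gave the same measure in a sample that had not chosen the genes, though the Controls remained shared. When Recovery 1 was left out, 179 genes passed, and 121 of them (67.6%) were at least 3-fold above Control in Recovery 1, beside 4.78% of all genes tested. For Recovery 5 it was 134 of 200 (67.0%, beside 3.44%) and for Recovery 4 it was 94 of 200 (47.0%, beside 2.60%). Recovery 2 gave 60 of 200 (30%, beside 1.21%) and Recovery 3 gave 20 of 200 (10%, beside 0.611%). In Recovery 3 the median of the genes so chosen was 0.37 log2 units above Control, against 2.12 in Recovery 1. The left-out depleted libraries showed a 4-fold level for 133 to 172 of 200 genes, beside 3.92% to 10.8% of all genes tested. Both were lowest in Depletion 2. With a Control left out, the Recovery libraries were the shared part. Mean Recovery was then at least 3-fold above Control 1, 3, 4 and 5 for 136, 182, 188 and 153 of 200 genes. Of all genes tested, 2.52%, 4.74%, 4.18% and 2.58% reached that level.

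Properties outside the rule were few. Of 176 members with a symbol, 149 were found in the RefSeq gene table of the assembly GRCz12tu, 147 of them as protein-coding genes. Within 5 genes of each other on that assembly lay 18 pairs with 30 members. Several were tandem copies, such as ctrb.1 and ctrb.3, c6ast3 and c6ast4, the connexins gja13.2 and gja12.2, the integrin genes itgae.1 and itgae.2 and 3 loci named si:ch211-240l19, for which reads of near-identical copies may have been divided or lost. Others were neighbours of unlike function, such as ela2l, alas2 and ela2, and CLU and SCARA3. By symbol, 13 of the 176 named members (7.39%) were proteases, beside 0.849% of tested genes with a symbol. Digestive proteases of the pancreatic pattern, such as ctrb.1 and prss59.1, are among the named members. As the pattern was defined by Depletion 2, Recovery 2 and Recovery 5, few of its 28 members could meet the rule without those libraries, and 2 did. Extracellular matrix genes and the complement and pentraxin family each gave 5 (2.84%), beside 0.896% and 0.249%. The cell cycle, heat shock and muscle families gave 0 named members. They hold only 0.949%, 0.457% and 0.742% of tested genes with a symbol, so 0 of 176 lies near these shares.

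The cut at 200 fell where values lay close together. The last members inside were MXRA8, a matrix-remodelling surface protein, with 42.3, 10 and 2.40 CPM in Depletion, Recovery and Control and a log2 ratio of Recovery to Control of 1.86, and FZD9, a Wnt receptor, with 27.0, 7.49 and 1.7 CPM and 1.86. Just outside were zgc:152753, with 18.7, 10.5 and 2.54 CPM and 1.86, and coagulation factor f5, with 28.3, 12.2 and 3.01 CPM and 1.85.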

How the data were processed

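The deposited values are counts, whole numbers per Ensembl gene identifier with 1 table per library, as the values show; the tables have no header. Per the labels' protocols, TruSeq libraries were made from total RNA of testis. The submitters' processing notes name FastQC 0.10.1, TopHat2 2.0.5, SAMtools 0.1.18, HTSeq and DESeq and the build Zv9, without their settings. How reads shared by paralogues or overlapping genes were counted, and whether strand was used, is not given in the sources used here. No molecular identifiers are described, so limits from counts cover counting error only.

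The 14 libraries were grouped by title. Symbols came from a gene table that names 21948 of the 33752 identifiers. CPM, group means and log2 ratios with a pseudocount of 0.5 CPM were computed from the counts. All 14 libraries were fitted in edgeR 4.0.16 (R 4.3.3; TMM scaling, default filterByExpr, group as the only factor; 21277 genes holding 99.8% of counts; 199 of 200 members), and DESeq2 1.42.0 was run as an alternative; the scripts were tested on simulated counts. Members, gene lists, roles and criteria were chosen with earlier results of these data known. Genes were named if among the first 20 ranks, in a gene list, the 2 most abundant of a symbol family, the 5 most abundant in Recovery, at the limit of the rule or extreme in their spread; further members were named after their values were seen. Alternatives were scaling, filter, pseudocount, Depletion minimum, medians, library depth, test, replicate block and each library left out. Promoter and protein sequences were not analysed here. 1 named member is not reported here.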

Additional observations from a re-analysis of the deposited data

Results flagged for a closer look

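Among 40 members with values shown or stored per library, 119 sets of libraries were examined for a single library far from the rest of its group (a gap to the nearest library, as a share of the group's range, above Dixon's critical value). There were 28 such sets, all with the far library on the high side. Chance flags about 1 in 20 sets, but the genes were partly chosen for their spread or for means that 1 library can carry, and several follow the same library, so the number of such sets is a description only.

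Depletion 2 stood apart for ctrb.1 (2102 CPM), amy2a (1274 CPM), prss59.1 (1998 CPM), ins (59 CPM), APOD (315 CPM) and si:dkeyp-1h4.8 (293 CPM). In Recovery the far library was Recovery 5 for amy2a (1304 CPM), APOD (298 CPM) and RDH10 (265 CPM), Recovery 2 for ins (41.6 CPM) and igf3 (51.2 CPM), and Recovery 4 for si:dkeyp-1h4.8 (43.2 CPM) and DGAT2 (239 CPM). APOD, a lipid carrier outside the digestive enzymes, is in the pattern defined by Depletion 2, Recovery 2 and Recovery 5. Its high values there follow largely from that definition. Its next highest Recovery library had 38.9 CPM, against 264 CPM for amy2a.

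Recovery 1 stood apart for 8 genes: CLU (367 CPM), MDK (375 CPM), LUM (30 CPM), GPNMB (67.9 CPM), DHRS3 (92.2 CPM), CRABP2 (27.4 CPM), wt1b (64.7 CPM) and COL5A1 (391 CPM). Depletion 5 did for LUM (161 CPM), TIMP2 (159 CPM) and c1qb (277 CPM). Of the Controls, Control 1 stood apart for ins (1.37 CPM) and ighm (48.6 CPM), and Control 5 for LUM (1.01 CPM) and hsd3b1 (37.7 CPM).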

How the results depend on the processing

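The number of genes meeting the rule was 337 with TMM-scaled CPM, 335 and 243 with pseudocounts of 0.1 and 1, 196 with group medians, 428 with libraries under 20000000 counts and 179 to 409 with 1 library left out. Of the 200 members, 102 stayed among the first 200 with group medians, 154 without Depletion 2, Recovery 2 and Recovery 5 together, and 138 to 195 with 1 library left out. Members called higher in Recovery than in Control numbered 140 by DESeq2 (5.05% of all genes) and 80 with only these groups fitted (4.15% of all genes). Without Depletion 2, Recovery 2 and Recovery 5 together they numbered 7 (0.0931% of all genes). With 1 library left out they numbered 0 to 69 (0% to 2.43% of all genes). With 1 library left out, members called higher in Depletion than in Control ranged over 166 to 192 (30.7% to 35.8% of all genes). Those called lower in Recovery than in Depletion ranged over 62 to 120 (26.5% to 32.3% of all genes). With libraries under 20000000 counts there were 54 of the latter (23.8% of all genes). Members called higher in Recovery than in Depletion ranged over 0 to 4 with 1 library left out (23.7% to 33.2% of all genes). Scaling by total counts moved the median of all genes to -0.34 in Depletion against Control and 0.26 in Recovery against Depletion, beside 0.03 and -0.04 with TMM.

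Deviations from the group mean had a mean correlation of 0.0245 over 13 pairs of samples with the same replicate number (-0.159 to 0.241). Over 52 pairs with different numbers it was -0.00615 (-0.4 to 0.355). Correlations near 0 cannot exclude a pairing, so whether the numbers pair the samples is not known. With a replicate block, 172 members were called higher in Depletion (32.7% of all genes) and 7 higher in Recovery (0.0423% of all genes) against Control. In Recovery against Depletion 110 were called lower (28.0% of all genes).

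Signs changed as follows. With group medians the log2 ratio of Recovery to Control was -0.65 for prss59.1, -0.04 for zgc:92590, -0.38 for CPA1 (ENSDARG00000030915), -0.71 for CPB1, -0.13 for ela2 and -0.04 for gja12.2, and that of Depletion to Control was -0.24 for APOD. Without Depletion 2, Recovery 2 and Recovery 5, the ratio of Recovery to Control was -0.82 for ctrb.1, -0.63 for ela3l, -0.47 for amy2a, -0.61 for ctrb.3, -1.03 for si:ch211-240l19.8, -0.41 for cela1.3, -0.19 for si:dkey-14d8.7, -0.81 for prss59.1, -0.32 for ctrl, -0.71 for zgc:92590, -0.74 for CPA1 (ENSDARG00000030915), -0.40 and -0.44 for CEL, -0.69 for c6ast3, -0.27 for ela2l, -1.21 for CPB1 and -0.57 for ela2. Without Recovery 1 it was -0.19 for gja12.2, and without Recovery 5 it was -0.30 for zgc:92590. Without Depletion 2, alone or with the other two, the ratio of Depletion to Control was -0.62 for ela2, -0.61 for APOD and -0.37 for ins. With 1 library left out, the ratio of Recovery to Control ranged up to 4.63 for zgc:92590 and 2.24 for gja12.2, and that of Depletion to Control up to 3.24 for ela2, 2.63 for APOD and 4.41 for ins. The causes were not tested. Over 81 genes, TMM scaling, both pseudocounts and each library left out gave 2754 ratios, of which 2715 kept their sign and moved by less than 1 SD, 34 moved further and 5 changed sign. The SD was that of log2(CPM + 0.5) for the gene among its Depletion or Recovery libraries. It is wide for genes carried by single libraries, so a move of less than 1 SD does not show that such a gene is stable. Of 162 ratios, group medians moved 25 further and changed the sign of 7, and leaving out the 3 libraries together moved 22 and changed the sign of 20.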
